A study of Mus musculus with 6 samples.

Results

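The matrix metalloproteinases Mmp2, Mmp9, Mmp14 and Mmp15 were described in the E14.5 mouse midbrain together with the inhibitors Timp1, Timp2, Timp3 and Timp4, the membrane-anchored inhibitor Reck and cystatin C (Cst3), 10 genes of the 26852 in the deposited table. The members were selected on their mean levels in Lmx1b conditional knock-out (cKO) and control midbrains, so their difference between the genotypes is given as a description with no test. RNA-sequencing had been performed on 3 libraries of Lmx1b fl/fl;Pitx3-Cre embryos and 3 libraries of Lmx1b wt/wt;Pitx3-Cre embryos, all C57Bl/6 and all carrying the Pitx3-Cre allele. Each library was made from pooled embryos, which came from several litters. Cre was driven from the Pitx3 locus, so Lmx1b was deleted only in Pitx3-positive dopaminergic neurons, whereas the whole dissected midbrain was sequenced. The table gives the mean of each group, and the whole read counts of the single libraries were recovered from these means. Within a group, the libraries are lettered a, b and c by falling size factor, the number that scales a library to a common depth. These letters carry no sample number, and the same letter does not pair a cKO with a control library.

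Matrix metalloproteinases (MMPs) are zinc-dependent enzymes that cut proteins of the extracellular matrix and the cell surface. They are made as inactive precursors, in which a cysteine of the propeptide holds the zinc, and they are active once the propeptide is removed. The tissue inhibitors of metalloproteinases (TIMPs) are secreted proteins that close the active site with their amino-terminal cysteine, and in the developing brain this system is known for its part in vessel growth, cell migration and axon outgrowth. Cystatin C inhibits cysteine proteases such as the cathepsins and is no inhibitor of MMPs, so it stands apart from the other members by its target.

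The stretch that the TIMPs place in the active site and the stretch with which the MMPs hold their zinc are shown here because they are what the members of each family share. Both were read from the GENCODE M21 transcripts on GRCm38, 5′ to 3′ on the coding strand, and each lies in a single coding exon. In the TIMPs, the capitals mark the codons of the first cysteine of the mature protein and of the cysteine that follows after 1 residue.
Timp1 (chrX:20871111-20871149, plus strand): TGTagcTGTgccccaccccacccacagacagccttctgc
Timp2 (chr11:118354974-118355012, minus strand): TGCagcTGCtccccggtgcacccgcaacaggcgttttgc
Timp3 (chr10:86300923-86300961, plus strand): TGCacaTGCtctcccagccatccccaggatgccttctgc
Timp4 (chr6:115251653-115251691, minus strand): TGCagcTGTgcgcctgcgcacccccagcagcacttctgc

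In the MMPs, the capitals mark the codons of the 3 histidines that bind the catalytic zinc.
Mmp2 (chr8:92839279-92839311, plus strand): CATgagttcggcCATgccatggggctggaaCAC
Mmp9 (chr2:164951133-164951165, plus strand): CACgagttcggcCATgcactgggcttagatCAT
Mmp14 (chr14:54437627-54437659, plus strand): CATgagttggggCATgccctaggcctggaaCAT
Mmp15 (chr8:95368585-95368617, plus strand): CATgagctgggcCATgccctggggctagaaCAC

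The translated coding sequences of the 4 TIMPs were 40.1% to 49.3% identical to each other. Among the MMPs, the membrane-bound pair Mmp14 and Mmp15 shared 59.1% of aligned residues and the secreted gelatinases Mmp2 and Mmp9 shared 50.3%, against 38.0% to 43.4% between the pairs. The cysteine switch of the propeptide was found in all 4 MMPs. A furin-type cleavage motif within the propeptide region was found in Mmp14 at residues 108 to 111 and in Mmp15 at residues 122 to 125, and this motif search gave no match there in Mmp2 and Mmp9.

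The recovered reads came to 20442857 to 24826325 per library. Lmx1b itself, counted over the whole gene, was 1371 ± 102 normalized reads in the cKO and 1398 ± 66.6 in the control libraries (SD, n = 3 each), and the groups overlapped. This count also covers Lmx1b-expressing cells without Cre. Why the groups overlapped was not tested, so the count speaks neither for nor against the genotype labels. The library cKO c stood apart by genes of mesenchyme and bone, since the summed level of the 8 listed meningeal and mesenchymal genes was 14035 normalized reads there, 2831 and 1011 in cKO a and b, and 985 to 1336 in the control libraries. For the groups as a whole, limma gave 0 of 16659 genes an adjusted p-value under 0.05 (Benjamini-Hochberg), and 467 genes had an unadjusted p under 0.05.

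The 10 members were read in every library, and for 8 of them the ranges of the cKO and control libraries overlapped. Timp1 was higher in every cKO library than in any control library, and Cst3 was lower. Such groups without overlap were seen for 1279 of the 16659 genes tested, or 7.68%, and nothing is read from the members' count, because the same means chose them. The median log2 fold change of the members, cKO against control, was -0.06, beside -0.00 for all genes tested. In a bulk midbrain, fewer cells of a type and less RNA per cell cannot be told apart, which holds for each difference given here.

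**Figure D1:**
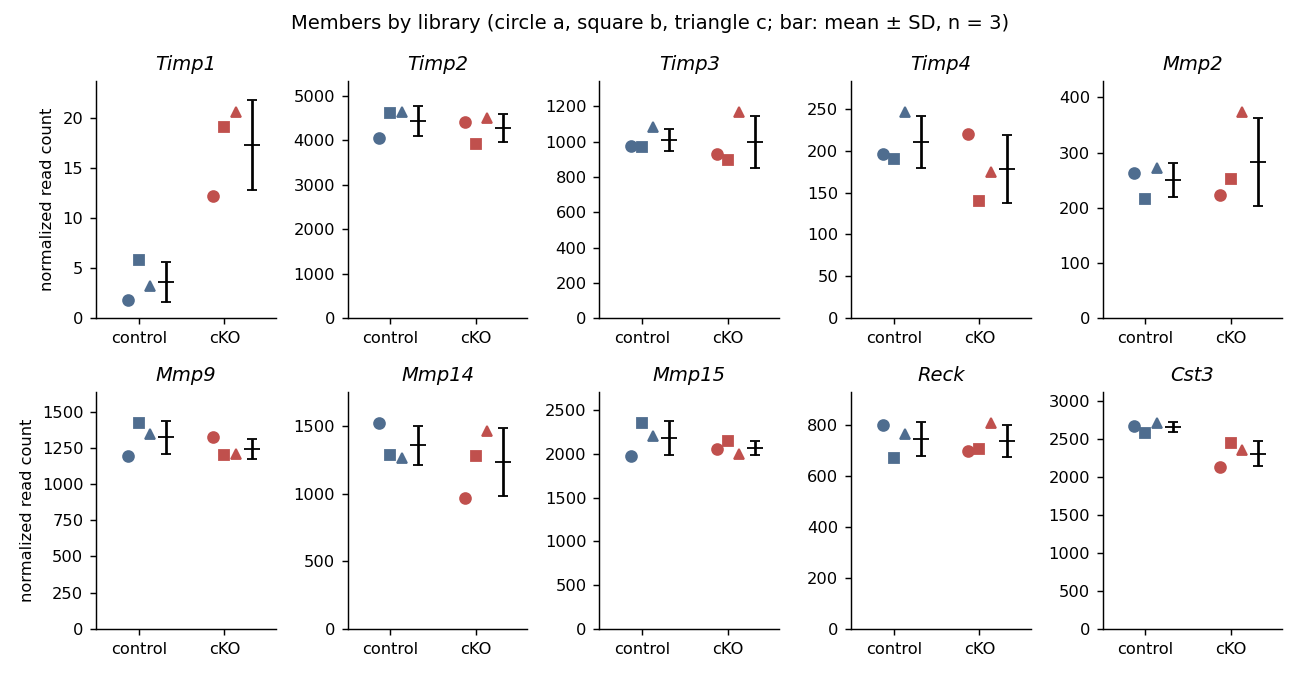
Normalized read counts (y axis, from 0) of the 10 members in the 3 control (blue) and 3 cKO (red) libraries, with circles, squares and triangles for replicates a, b and c and the mean ± SD beside them. The groups overlap in 8 panels, and the cKO libraries lie above the control libraries for Timp1 and below them for Cst3.

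Timp1, the TIMP known to be induced in reactive and inflamed tissue, had the lowest level of all members. It was read at 12.2, 19.0 and 20.6 normalized counts in cKO a, b and c and at 1.77, 5.76 and 3.24 in control a, b and c. The lowest cKO library was 2.11 times the highest control library. These values rest on few reads, 13, 18 and 19 reads in the cKO against 2, 6 and 3 in the controls. The 50 summed cKO reads against 11 control reads, scaled by size factor, gave a ratio of 4.79. The fitted log2 fold change was 2.21 ± 0.61 (SE). Its mean over all libraries lay close to the minimum of 10 normalized counts that a gene needed to be fitted, and it met this minimum only through the cKO libraries.

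Of the 8 listed genes of meninges and mesenchyme, 3 (Col1a1, Lum and Col3a1) were also higher in every cKO library than in any control library, and the other 5 overlapped. The share of all genes without overlap was 7.68%, but this count is not read against it, since Lum met the minimum level only through the cKO libraries and Foxc2 did not meet it. Col1a1, the main collagen chain of connective tissue and bone, was 532, 14.8 and 6097 normalized reads in cKO a, b and c and 10.6 to 11.5 in the control libraries. Lum, a proteoglycan of connective tissue, was 62.8, 3.17 and 306 in the cKO and 0 to 1.77 in the control libraries. Col3a1, a collagen chain of soft connective tissue, was 626, 240 and 2319 in the cKO and 172 to 215 in the control libraries. In cKO b, where these 3 genes were lowest among the cKO libraries, Timp1 was 19.0 normalized reads. Of the 5 that overlapped, Col1a2 was 123 in cKO b and 165 to 225 in the control libraries. Dcn was 10.6 in cKO b and 17.3 to 30.2 in the control libraries, so both lay below every control library there. Pdgfra had a log2 fold change of 0.10 ± 0.20 (SE). Without cKO c, the cKO mean of Timp1 was 15.6 and the ratio to the control mean was 4.34. The 7 of the 8 listed meningeal and mesenchymal genes that met the minimum level, Lum included, had a median log2 fold change of 1.76, or 0.56 without cKO c, and 7 of the 8 were highest in cKO c. The summed bone list was 611, 580 and 1246 normalized reads in cKO a, b and c and 574 to 635 in the control libraries. The part of these cells in the Timp1 values was not tested.

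Timp2, which blocks MMPs and also forms the complex with Mmp14 that activates the Mmp2 precursor, was the most abundant TIMP (chr11:118301069-118355740). It was read at 4417, 3910 and 4495 normalized counts in the cKO, against 4050, 4604 and 4632 in the control libraries. The means of 4274 ± 318 and 4429 ± 329 (SD, n = 3 each) differed by less than either SD. Its log2 fold change was -0.05 ± 0.07 (SE).

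Timp3, the TIMP that stays bound to the matrix and also inhibits enzymes of the ADAM family, was 928, 898 and 1169 normalized reads in the cKO, against 976, 973 and 1081 in the control libraries. Both the highest and the lowest library were cKO libraries, and without cKO c the ratio of the group means was 0.904. Timp4, the TIMP with the most restricted expression, was 220, 139 and 174 normalized reads in the cKO and 196, 190 and 246 in the control libraries. Its means of 178 ± 40.5 and 211 ± 30.9 (SD, n = 3 each) differed by less than the SD of the cKO libraries, and its log2 fold change was -0.23 ± 0.19 (SE).

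Timp1, Timp3 and Timp4 each lie inside a synapsin gene, on the opposite strand. Timp1 lies inside Syn1 (chrX:20870166-20874735 for Timp1) and shares no exon bases with it, Timp4 lies inside Syn2 (chr6:115241892-115252205) and shares 90, and Timp3 lies inside Syn3 (chr10:86300372-86349506) and shares 1733 exon bases, or 21.3% of its own. The strand setting of the authors' counting is not given in the sources used here. It is therefore not known whether reads from the shared bases of Timp3 and Timp4 were assigned to them, to the synapsins or to neither. If strand was ignored, reads of unspliced Syn1 RNA over the Timp1 exons would count as Timp1, and this was not tested. The 3 synapsins, which coat synaptic vesicles, had log2 fold changes of 0.05 for Syn1, -0.05 for Syn2 and 0.09 for Syn3, each less than its SE. Timp2 overlapped Cep295nl on the same strand, without shared exon bases.

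Mmp2 (chr8:92827291-92853420), the gelatinase of mesenchymal and vascular cells, was 223, 251 and 373 normalized reads in the cKO, against 264, 215 and 272 in the control libraries. The cKO mean of 283 ± 79.9 was above the control mean of 250 ± 30.7 (SD, n = 3 each) through cKO c alone. Without cKO c, the library with the most mesenchymal and bone RNA, the cKO mean was 237 and lay below the control mean. Mmp2, Timp1, Timp3 and Reck were the 4 members with their highest value in cKO c.

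Mmp9 (chr2:164940780-164955850), the gelatinase of osteoclasts and inflammatory cells that is also made by neurons, was 1325, 1200 and 1205 normalized reads in the cKO, against 1196, 1424 and 1345 in the control libraries. Its means were 1243 ± 70.6 and 1322 ± 115 (SD, n = 3 each), and the groups overlapped. Of the 5 listed osteoclast markers, Acp5, Ocstamp and Dcstamp were at 0 to 5.76 normalized reads in all libraries, whereas Tnfrsf11a was at 28.5 to 80.1 and Calcr, which neurons also express, at 538 to 825. The 10 microglial markers summed to 1593 to 1726 without a group difference in any of them by limma's unadjusted p.

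Mmp14 (chr14:54431612-54445364), the membrane-bound enzyme that activates the Mmp2 precursor, varied most among the more abundant MMPs. It was 966, 1281 and 1464 normalized reads in the cKO, against 1527, 1285 and 1264 in the control libraries, so that cKO a held the lowest and control a the highest value. The log2 fold change was -0.17 ± 0.13 (SE). Mmp15 (chr8:95352268-95375080), the member closest to Mmp14 in sequence, was 2056, 2149 and 1999 in the cKO and 1973, 2359 and 2212 in the control libraries, with a log2 fold change of -0.07 ± 0.07 (SE).

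Reck (chr4:43875530-43944806), a membrane-anchored MMP inhibitor that also serves Wnt7 signalling in growing brain vessels, was the member with the smallest fitted difference. It was read at 700, 706 and 811 normalized counts in the cKO, against 801, 673 and 767 in the control libraries, and its log2 fold change was -0.02 ± 0.10 (SE). The 8 listed endothelial markers had a median log2 fold change of 0.03 and the 6 pericyte markers of 0.09, and none of them had an unadjusted limma p under 0.05.

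Cst3 (chr2:148871722-148875692), the secreted cathepsin inhibitor that is abundant in astrocytes and their precursors, was 2131, 2442 and 2354 normalized reads in cKO a, b and c and 2671, 2584 and 2715 in control a, b and c. The means were 2309 ± 161 and 2657 ± 66.8 (SD, n = 3 each). The highest cKO library was 0.945 times the lowest control library, so the groups were separated by a small gap. The log2 fold change was -0.21 ± 0.06 (SE), and without cKO c the ratio of the group means was 0.861.

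Several markers of radial glia and astrocytes had lower means in the cKO, as Cst3 did. Of the 8 listed genes that could be tested, 4 were lower in the cKO by limma's unadjusted p under 0.05 and 0 were higher, beside 2.80% of all genes called in either direction, and 0 passed the adjusted threshold. The 4 were the glutamate transporter Slc1a3 with a log2 fold change of -0.21 ± 0.07 (SE), the Notch target Hes5 with -0.33 ± 0.13, the matrix protein Sparcl1 with -0.23 ± 0.07 and the folate enzyme Aldh1l1 with -0.22 ± 0.06. The groups overlapped for Slc1a3 and Hes5 and did not for Sparcl1 and Aldh1l1. Sox2 and Nes, which mark the wider pool of neural progenitors, had log2 fold changes of 0.01 and -0.04. The list median was -0.23, or -0.27 without cKO c. The 9 genes of the list with recovered reads summed to 20962, 22255 and 23433 normalized reads in the cKO and 24707, 23640 and 25081 in the control libraries. The astrocyte protein gene Gfap was at 0 to 10.8 normalized reads in all libraries. The part of these cells in the Cst3 values was not tested.

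**Figure D2:**
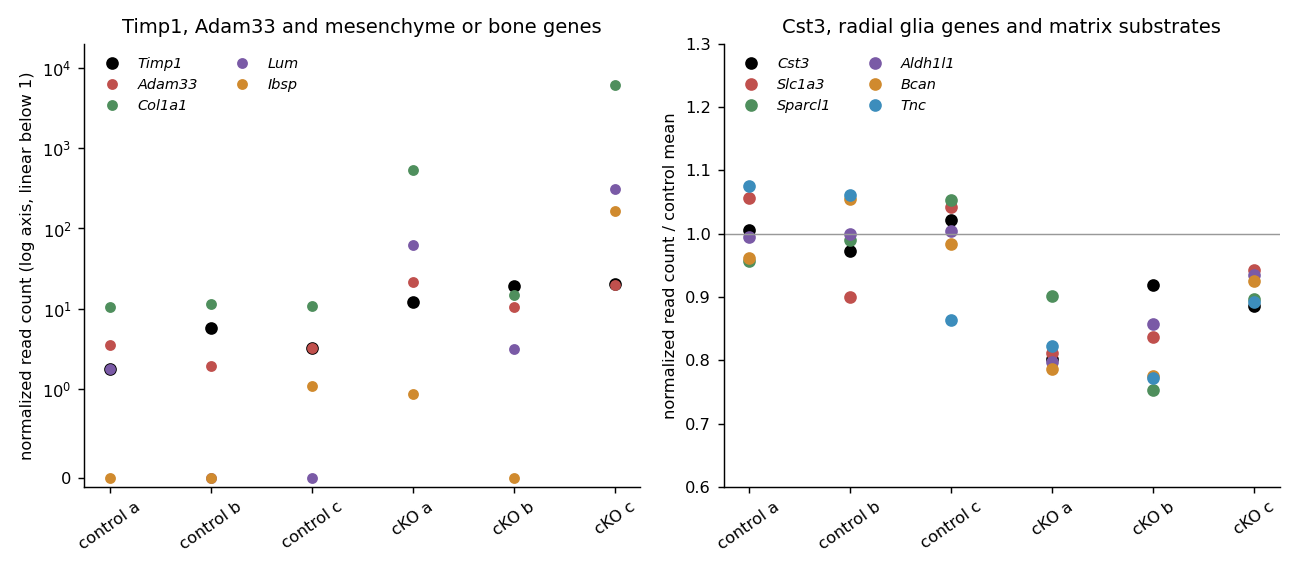
Left, normalized read counts (log axis, linear below 1) by library of Timp1, Adam33 and the mesenchyme or bone genes Col1a1, Lum and Ibsp. Right, normalized read counts divided by the control mean of the same gene for Cst3, the glial genes Slc1a3, Sparcl1 and Aldh1l1 and the matrix genes Bcan and Tnc. The genes beside the members were picked from their lists after their values were seen. Among those not shown are Pdgfra, Sox2 and Nes, with log2 fold changes of 0.10, 0.01 and -0.04. Timp1 is 19.0 normalized reads in cKO b, where Col1a1 is 14.8, and the 3 cKO points of Cst3 lie below the 3 control points.

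To compare the members with each other, normalized reads were divided by the length of all exons of the gene in kilobases. On this scale of level per length, Cst3 was highest with 1961 ± 174 normalized reads per kb (SD, n = 6 libraries), followed by Timp2 with 1117 ± 77.4. The MMPs followed with 394 ± 27.1 for Mmp15, 362 ± 27.1 for Mmp9 and 218 ± 32.9 for Mmp14. Reck reached 155 normalized reads per kb, with a range of 141 to 170 over the libraries, and Timp3 123 ± 12.5. The lowest members were Mmp2 with 79.1 ± 16.9, Timp4 with 33.0 ± 6.25 and Timp1 with 11.7 ± 9.12. Even in the cKO libraries, Timp1 stayed below Timp4, with at most 23.2 normalized reads per kb against at least 23.7.

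Each of the 9 neighbouring pairs in this order stood in the same direction in 6 of 6 libraries, which is a description, since the order was read from the same libraries. The smallest step was from Mmp15 to Mmp9, a ratio of 1.09. With the length of the longest transcript in place of all exons, Mmp15 was above Mmp9 in 5 and Mmp9 above Mmp14 in 3 of 6 libraries, so these neighbours did not differ beyond their spread, and Timp3 stood above Reck.

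**Figure D3:**
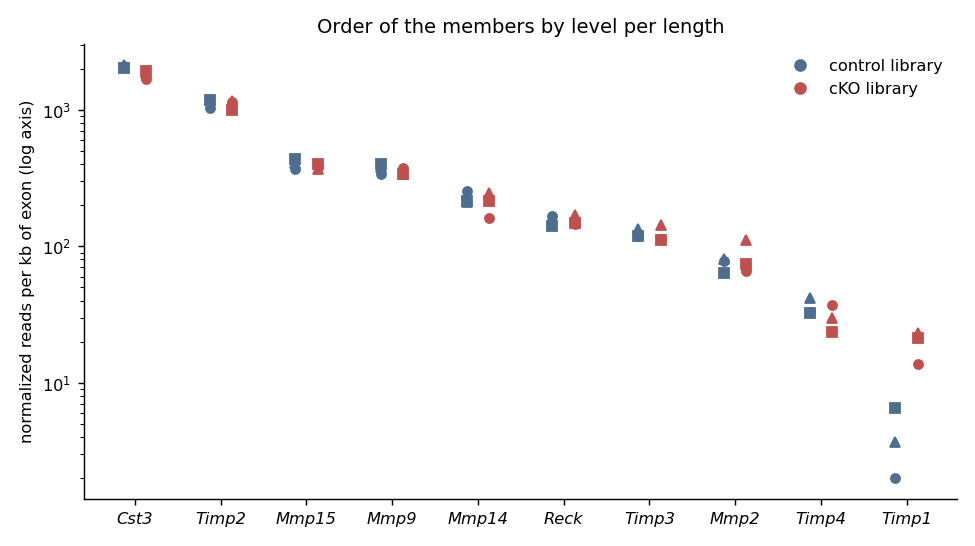
Normalized reads per kb of exon (log axis) of the members in the control (blue) and cKO (red) libraries, ordered by the mean over all 6 libraries, with circles, squares and triangles for replicates a, b and c. The levels run from 1961 for Cst3 to 11.7 for Timp1, and the Timp1 points span 1.99 to 23.2.

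The sum of the 4 TIMPs per kb exceeded the sum of the 4 MMP members in all 6 libraries. This holds for these members only, since other MMPs are left out. Among them is Mmp24, with a mean of 5796 normalized reads over all libraries against 2125 for Mmp15. The sums use the length of all exons and were not computed with the longest transcript. The ratio of the sums was 1.24 ± 0.0988 in the cKO and 1.20 ± 0.0564 in the control libraries (SD, n = 3 each), a difference smaller than either SD. Timp2 made up 85.5% to 88.2% of the TIMP sum. Timp1 made up 1.54% ± 0.424 of the TIMP sum in the cKO and 0.306% ± 0.162 in the control libraries (SD, n = 3 each). Among the MMPs, Mmp15 held 34.7% to 39.1%, Mmp9 31.9% to 38.1%, Mmp14 16.5% to 24.7% and Mmp2 5.70% to 10.4% of the sum, with the highest share of Mmp2 in cKO c. These are sums of RNA levels and say nothing of the amounts or the activity of the proteins.

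**Figure D4:**
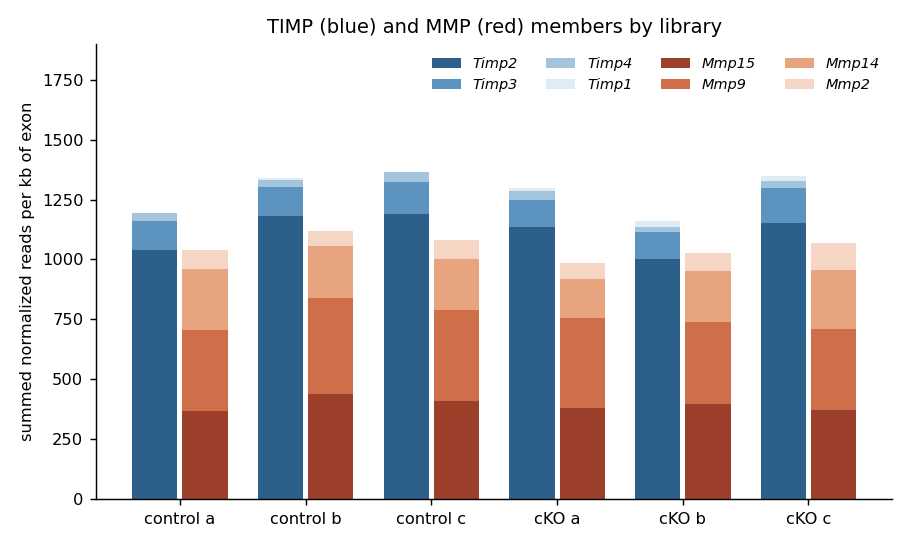
Summed normalized reads per kb of exon (y axis, from 0) of the 4 TIMPs (blue bars) and the 4 MMP members (red bars) in each library. The TIMP bar is the taller of the pair in each library, and most of it is Timp2.

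The wider protease network was described from lists of 115 genes around the members, of which 104 had a row. Reads were recovered for 100, and 89 of these also met the minimum level and were tested. The 4 genes without recovered reads lay above the search limit, among them Agrn and Lrp1, the most abundant of their lists. At an unadjusted limma p under 0.05, 5 of the 89 were lower and 3 were higher in the cKO, beside 2.80% of all genes called in either direction. The 3 include Adam33, which met the minimum level only through the cKO libraries, where it was high, so the count is not read against that share. The count also rests on single libraries, since it was 3 of 88 without cKO a, beside 478 of 16657 genes, 5 without cKO b, 5 without control b and 4 without control c. None passed the adjusted threshold, with an adjusted p of 1.00 for each gene named, and the median log2 fold change of the 89 was -0.01. Of the 19 other MMPs listed, 12 had a row, and none of the 7 tested had an unadjusted p under 0.05. The most abundant of them by normalized reads was Mmp24, the membrane-bound MMP of neurons, with 5899 ± 555 in the cKO and 5693 ± 424 in the control libraries (SD, n = 3 each).

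Serpine2, a protease inhibitor of glia and neurons also called nexin, belongs to the list around the plasmin system, which activates several MMP precursors. It was 4022, 4047 and 4132 normalized reads in the cKO and 4314, 4319 and 4735 in the control libraries, lower by the unadjusted p, with a log2 fold change of -0.13 ± 0.05 (SE). The groups did not overlap.

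Adam33, a membrane-bound metalloproteinase of mesenchymal cells, met the minimum level only through the cKO libraries, so nothing is read from its unadjusted p. As a description, it showed the pattern closest in size to that of Timp1 among the listed genes named here. It was 21.5, 10.6 and 19.5 normalized reads in the cKO and 3.54, 1.92 and 3.24 in the control libraries, with a log2 fold change of 2.37 ± 0.62 (SE). Adam10, the main sheddase of Notch receptors and the most abundant listed ADAM, had a log2 fold change of 0.02 ± 0.05 (SE). Adamts6, a secreted metalloproteinase that was lower by the unadjusted p, was 136, 183 and 213 normalized reads in the cKO and 262, 208 and 216 in the control libraries, with a log2 fold change of -0.41 ± 0.18.

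Of the 13 cystatins and cathepsins tested, the latter being the cysteine proteases that cystatin C inhibits, 1 was higher and 1 lower by the unadjusted p, beside 2.80% of all genes. Ctsh was 90.9, 95.1 and 89.8 normalized reads in the cKO and 64.6, 57.6 and 72.4 in the control libraries, with a log2 fold change of 0.51 ± 0.22 (SE). Ctso was 84.3, 87.7 and 142 in the cKO and 120, 163 and 156 in the control libraries, with a log2 fold change of -0.51 ± 0.23. Ctsb, the most abundant of the 13, had a log2 fold change of -0.04 ± 0.05 (SE).

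Of the 20 matrix substrates tested, 2 were lower in the cKO and 0 were higher by limma's unadjusted p, beside 2.80% of all genes. Bcan, the brain proteoglycan brevican that glia deposit around neurons, was 1424, 1405 and 1678 normalized reads in the cKO and 1745, 1912 and 1783 in the control libraries, with no overlap. Its log2 fold change was -0.28 ± 0.08 (SE). Tnc, the matrix glycoprotein tenascin C of radial glia, was 6755, 6334 and 7332 in the cKO and 8832, 8712 and 7094 in the control libraries, with a log2 fold change of -0.27 ± 0.08. Bcan and Tnc kept an unadjusted p under 0.05 in each of the 6 fits without 1 library, whereas Ctsh did so in 1 and Ctso and Adamts6 in 2 of 6 such fits. Serpine2 did so in 3 of 6. Adam33 met the minimum level only in the 3 fits that kept all cKO libraries, so these fits say nothing of how stable its value is. Bcan and Tnc are known as products of glia, whose markers were in part lower in the cKO libraries, and the part of these cells in their values was not tested.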

How the data were processed

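One table was deposited, with 26852 genes and 3 further lines that name no gene and hold 31.8% of the mean counts. Its deposited coverage columns (signal) are the mean over all libraries and over each group of 3 libraries, in read counts that the authors had divided by a size factor per library. Its other columns hold the authors' comparison of the groups (ratio, log2 ratio, p-value, adjusted p-value and rank) and were not used. The submitters' processing notes name TopHat 1.0.14, Bowtie2 2.1.0, HTSeq 0.6.1p1, DESeq 1.10.1 and GRCm38.p4; the strand setting is not given in the sources used here.

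Whole read counts per library were recovered by searching for the counts whose scaled sum gives each printed mean, up to 30000 reads. A single answer in both groups was found for 26334 genes (98.1%, 68.8% of normalized counts), and 7 of 1000 decoy values had one. Size factors recomputed from these counts differed by at most 0.132%. A voom fit by limma 3.58.1 (R 4.3.3), with genotype as the only term and Benjamini-Hochberg adjustment, covered the 16659 genes whose normalized counts averaged 10 or more. The fit was tested on simulated data, where 74.5%, 98.0% and 98.5% of 200 genes changed 1.5-, 2- and 3-fold among 16659 were recovered. Every simulated gene had the same dispersion of 0.0054, and no simulated library stood apart as cKO c did. These shares therefore do not carry over to real genes that vary more, and they do not show that few genes changed here. Levels per length used GENCODE M21 exons on GRCm38 and log2(reads per kb + 0.01).

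The members, lists and tests were chosen with earlier results of these data known. The named genes are the members, list genes with an unadjusted p under 0.05, the most abundant gene of a list, the 3 genes most like Cst3, the synapsins around the Timp genes, and markers where a list moves with a member. Other genes were named after their values were seen. The limma p-values set a group difference against the spread between these libraries, which limma draws towards that of all genes. The libraries are pools, so the spread between single embryos was not measured. Listed genes without a row were not analysed here, and 1 listed gene past the unadjusted threshold is counted but not reported here.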

Additional observations from a re-analysis of the deposited data

How the results depend on the processing

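The log2 fold changes of the members other than Timp1 and their median moved by less than the replicate spread under limma-trend, recomputed and upper quartile scaling and the ratio of the deposited means. Without 1 library, they ranged from 1.81 to 2.59 for Timp1 (no value without cKO b or cKO c, where it missed the minimum level), from -0.25 to -0.15 for Cst3, from -0.07 to 0.30 for Mmp2, from -0.30 to 0.01 for Mmp14, from -0.11 to 0.01 for Timp2, from -0.14 to 0.04 for Timp3, from -0.09 to 0.04 for Reck, from -0.41 to -0.07 for Timp4, from -0.15 to -0.02 for Mmp9, from -0.15 to -0.01 for Mmp15 and from -0.10 to -0.03 for the median. With a pseudocount of 10, Timp1 fell to 1.00. The 467 genes with an unadjusted p under 0.05 became 303 (177 lower) at a minimum mean of 100, 974 (521 lower) with no minimum, and 333 to 635 without 1 library. Adjusted calls were 0 to 4 without 1 library, with 4 without control a. The 8 list genes became 5 at a minimum of 100, 4 with no minimum, and 3 to 9 without 1 library: 3 without cKO a, 5 without cKO b, 5 without control b and 4 without control c. At a pseudocount of 1 per kb, 9 of 9 neighbouring pairs stood in the same direction in 6 of 6 libraries. With the longest transcript the order itself changed, and 7 of the 9 pairs of the new order did so. The deposited column headers number the libraries alike in both genotypes, and the sources do not say whether these numbers mark pairs. The recovered libraries carry no such number, so no paired analysis was run. Depth limits Timp1 and Adam33, which rest on few reads per library.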

Other observations

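The genes most like Cst3 across the 6 libraries, among 12427 genes with a mean of at least 100 normalized reads, were Sap18b with r = 0.995, Tctn2 with r = 0.993 and Rpl11 with r = 0.985 (Pearson, log2 scale), as a description, since all 6 points share the split by genotype and the highest values were picked from many. Tctn2, a protein of the ciliary transition zone, was 486, 589 and 575 normalized reads in cKO a, b and c and 669, 628 and 671 in control a, b and c. Sap18b and Rpl11 have near-identical copies elsewhere in the genome, so their counts are uncertain.

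Among the listed blood genes, 2 of 7 were higher in the cKO by limma's unadjusted p and the median log2 fold change was 0.30, and among the 8 midbrain dopaminergic genes 2 were lower with a median of -0.20, beside 2.80% of all genes called in either direction and with no adjusted call. The choroid plexus gene Ttr was at 6.34 normalized reads in cKO b and at 0 in the other libraries.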
